A study of Mus musculus with 6 samples.

Results

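The CD3 complex, the coreceptor CD4 and the first enzymes and scaffolds that act behind the T cell receptor were examined on 6 one-colour mouse arrays. The genes were Cd3d, Cd3e, Cd3g, Cd247, Cd4, Lck, Zap70, Lat and Lcp2, 9 in all. They were chosen by symbol, with earlier results of these data known. Every probe set that the platform annotation pairs with one of these symbols alone was read, and each is given apart. This gave 15 probe sets of 8 genes, out of 18193 genes named in the whole series. No probe set carried the symbol Lck alone in that annotation. Probe sets with several symbols were not searched for it, and Lck was not analysed here. Cd3d, Cd3e, Cd3g and Lat had 1 probe set each, and the other 4 genes had several.

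The cells of main interest were induced regulatory T cells (iTreg), CD4+ Foxp3+ Nrp- cells sorted from the mesenteric lymph nodes of Balb/c TBmc Foxp3 GFP mice after 1 week of oral ovalbumin at 1% (3 arrays). They were set against total Treg, the CD4+ Foxp3+ cells of the same nodes in Balb/c wild-type (WT) Foxp3 GFP mice (3 arrays), and mice of both groups were 4 to 6 weeks old. TBmc mice have 1 transgenic receptor specificity on their T cells and 1 on their B cells, and lack the recombinase that would make others. Genotype, receptor repertoire, feeding and sort gate differ together between the groups and cannot be told apart. CD4 itself was part of the sort in both groups, so Cd4 is given as a description of the sorted cells. The cell type label of WT replicate 1 also reads Nrp-, and the strain label of iTreg replicate 1 names neither TBmc nor the reporter; both arrays were kept in the groups that their titles give.

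The T cell receptor chains that bind antigen have no signalling tail of their own. They are carried by the CD3 chains gamma, delta and epsilon (Cd3g, Cd3d, Cd3e) and by the zeta chain (Cd247), whose tails hold the tyrosine motifs that are phosphorylated when antigen binds. CD4 binds MHC class II on the presenting cell and brings the kinase LCK to the complex; LCK phosphorylates the motifs, and ZAP-70 docks on them. ZAP-70 then phosphorylates the membrane scaffold LAT and the cytosolic adaptor SLP-76 (Lcp2), on which the calcium and Ras branches are assembled. In regulatory T cells, too, receptor signals are known to be needed for their differentiation and for suppression.

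The start regions of the 4 chains of the complex are shown because 3 of these genes, Cd3g, Cd3d and Cd3e, lie side by side in the genome, while Cd247, with the smallest p below, lies on another chromosome. Sequences run 5′ to 3′ on the gene's strand from 250 bases before to 50 bases after the annotated start, from RefSeq on GRCm38.p6. Capitals mark AGGAAG or its reverse complement CTTCCT, a single form of the ETS-type motif. The shorter letters GGAA or TTCC with other flanks were not searched or marked, and they also occur in the Cd3g window. The windows are chr9:44980382-44980681 (minus strand) for Cd3g, chr9:44981536-44981835 (plus strand) for Cd3d, chr9:45009562-45009861 (minus strand) for Cd3e and chr1:165788431-165788730 (plus strand) for Cd247.
Cd3g: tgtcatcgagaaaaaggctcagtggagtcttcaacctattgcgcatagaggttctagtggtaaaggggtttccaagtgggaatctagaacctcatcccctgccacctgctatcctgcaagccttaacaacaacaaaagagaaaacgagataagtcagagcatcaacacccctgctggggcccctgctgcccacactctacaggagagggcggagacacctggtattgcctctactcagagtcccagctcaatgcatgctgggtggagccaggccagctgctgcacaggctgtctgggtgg
Cd3d: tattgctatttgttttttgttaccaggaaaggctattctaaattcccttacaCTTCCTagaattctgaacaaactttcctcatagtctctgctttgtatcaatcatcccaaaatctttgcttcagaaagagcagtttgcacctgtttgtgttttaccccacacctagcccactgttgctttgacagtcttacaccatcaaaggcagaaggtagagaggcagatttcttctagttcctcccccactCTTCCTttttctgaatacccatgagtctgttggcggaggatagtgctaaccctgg
Cd3e: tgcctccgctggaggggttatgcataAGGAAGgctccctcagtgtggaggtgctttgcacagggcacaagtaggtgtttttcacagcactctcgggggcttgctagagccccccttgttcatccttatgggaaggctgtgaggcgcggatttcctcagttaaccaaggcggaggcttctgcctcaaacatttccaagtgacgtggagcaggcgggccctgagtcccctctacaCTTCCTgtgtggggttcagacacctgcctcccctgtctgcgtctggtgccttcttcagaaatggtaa
Cd247: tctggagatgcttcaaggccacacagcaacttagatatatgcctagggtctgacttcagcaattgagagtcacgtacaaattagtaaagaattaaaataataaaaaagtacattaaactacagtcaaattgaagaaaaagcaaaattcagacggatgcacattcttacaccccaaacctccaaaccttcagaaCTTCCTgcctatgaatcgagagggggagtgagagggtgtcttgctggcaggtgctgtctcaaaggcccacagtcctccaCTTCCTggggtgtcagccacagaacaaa

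Cd3g and Cd3d are divergent neighbours: their windows lie on opposite strands with 854 bases between them, and between the starts of Cd3g and Cd3e the annotation holds no gene other than these 3. The capital motif occurs 2 times each in the windows of Cd3d, Cd3e and Cd247 and 0 times in that of Cd3g. Of all 32851 start windows of the same length, 35.35% hold it. The E-box CAGGTG or CACCTG was found 2 times in Cd3g and 1 time each in Cd3d, Cd3e and Cd247, against 20.21% of all windows with at least 1. The Runx-type letters TGTGGT or ACCACA (16.76% of all windows) and the TATA letters TATAAA or TTTATA (13.62%) were in none of the 4 windows. In these 4 windows no match to one motif overlapped a match to another. Of the 9 genes 8 were in the sequence table, all but Cd4. A match describes letters and is no binding site.

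The values are MAS5 signals on a linear scale, with the same trimmed mean on each array, and tests and differences were taken on log2(signal + 16), which understates the change of dim probe sets. Median signals were between 24.3 and 27.4 on the iTreg arrays, against 21.1 to 32.3 on the WT arrays. The third array of each group had the brightest hybridisation controls, with a mean log2 signal of 12.9 on each, against 12.1 to 12.6 on the other 4. The log2 ratio of the 3′ to the 5′ Gapdh control, a measure of RNA integrity, was 3.06, 2.48 and 3.38 on the iTreg arrays, against 2.28, 2.53 and 2.34 on the WT arrays (exact permutation p = 0.2, two-sided; 3 against 3 cannot go below 0.1). For the Actb control this log2 ratio was 0.38, 0.25 and -0.00044 on the iTreg arrays, against 0.14, 0.27 and 0.32 on the WT arrays (exact permutation p = 0.8, two-sided). The part of RNA integrity in the differences below was not tested. The summed signal of 5 Treg genes was 6418 to 7826 in iTreg, against 10989 to 12704 in WT Treg. On their brightest probe sets Il2ra (1169 to 2256 in iTreg, 3537 to 5860 in WT), Ikzf2 and Tnfrsf18 were lower in iTreg without overlap. Among all probe sets tested, 6.89% were lower in iTreg in this way. The dimmer probe set of Il2ra overlapped (188 to 643 in iTreg, 554 to 782 in WT), with a lower iTreg mean. So did a dimmer one of Ikzf2 (514 to 870 in iTreg, 319 to 1815 in WT), while another of Ikzf2 was lower without overlap. Ctla4 overlapped (1811 to 3895 in iTreg, 2612 to 3478 in WT). Foxp3 itself was between 15.6 and 54.6 in iTreg and between 9.16 and 45.7 in WT Treg. Its probe set lay at or near the level of unspiked bacterial controls, which reached 28.5. Of 6 B cell genes 0 were above that level on all arrays and 4 were below it on all, their sum being 65.0 to 122 in iTreg against 82.7 to 131 in WT. Myeloid and dendritic genes summed to 428 to 739 in iTreg against 640 to 1168 in WT, with 1 of 9 above the control level on all arrays. Among them Lyz2 went the other way without overlap, at 44.6, 44.2 and 23.1 in iTreg against 21.9, 9.01 and 8.79 in WT. It was above the control level on 2 arrays. With overlap, Cd68, Tyrobp and Fcer1g had higher means in iTreg, Cst3, Itgax, Cd14 and Adgre1 lower ones, and Csf1r went both ways by probe set. The part of these cells in the results was not tested. The 2 CD8 genes summed to 101 to 225 in iTreg and to 73.2 to 107 in WT. Of these, Cd8b1 was higher in iTreg without overlap, at 69.6, 132 and 70.1 against 63.3, 33.7 and 34.0 in WT. It was above the control level on all arrays, and Cd8a overlapped. Of all probe sets tested, 4.54% were higher in iTreg without overlap. The part of CD8 cells in the results was not tested. Plasma cell genes summed to 350 to 713 in iTreg against 623 to 958 in WT, and natural killer cell genes to 37.3 to 85.0 in iTreg against 67.9 to 86.1 in WT. Erythroid and platelet genes summed to 25.8 to 99.1 in iTreg against 51.0 to 72.5 in WT, and stromal genes to 379 to 830 in iTreg against 382 to 424 in WT. Outside the Treg genes, single genes carried the larger sums. These were Pecam1 for the stromal one (345 to 735 in iTreg, 341 to 385 in WT), Xbp1 for plasma cells (267 to 604 in iTreg, 511 to 863 in WT) and Cst3 for the myeloid one (321 to 571 in iTreg, 551 to 1091 in WT).

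No probe set of the complex, of Cd4 or of the proximal signalling genes passed the test. All 15 were above the filter on low signals and above the control level of 28.5 on every array, and their adjusted p-values were between 0.745 and 0.997 (limma with Benjamini-Hochberg adjustment over 27022 probe sets). Over all those tested, 7 probe sets were called, or 0.0259%, so a count of 0 among 15 lies at the background. At an unadjusted p under 0.05, 1 of the 15 was higher in iTreg, 6.67% against 2.44% of all probe sets, and 0 were lower, against 3.77%. In 2 of the 15 every iTreg array lay above every WT array, 13.3% against 4.54% of all, and in 1 every iTreg array lay below, 6.67% against 6.89%. The log2 difference of iTreg minus WT Treg was above 0 for 9 probe sets and below 0 for 6, with a median of 0.04 against -0.02 over all probe sets tested. The median size of the difference was 0.35, against 0.30 over all.

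**Figure D1:**
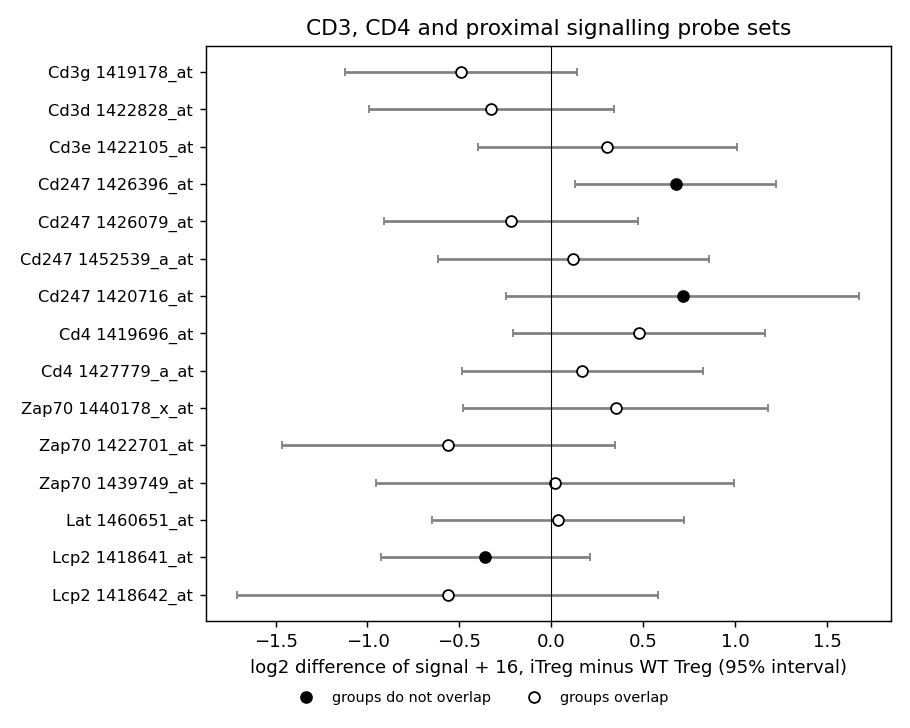
Log2 difference of iTreg minus WT Treg for each of the 15 probe sets, with its 95% confidence interval from limma (3 arrays each). The only interval that does not cross 0 is that of Cd247 1426396_at, from 0.13 to 1.23.

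The 3 CD3 chains with a short extracellular domain of the immunoglobulin type did not differ between the groups in one direction. Cd3g, which encodes the gamma chain that pairs with epsilon, had signals of 2718, 2857 and 1801 in iTreg against 3269, 2758 and 4323 in WT Treg (probe set 1419178_at). The lowest array was iTreg 3 and the highest WT 3, and iTreg 2 lay above WT 2, so the groups overlapped. The mean was 2459 ± 574 in iTreg, against 3450 ± 798 in WT Treg (SD, n = 3 each), a log2 difference of -0.49 with a 95% interval of -1.12 to 0.14 (limma, adjusted p = 0.864). Without iTreg 3 the difference was -0.28, and without WT 3 it was -0.32.

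Cd3d, encoding the delta chain that forms the other epsilon pair, had signals of 3257, 2474 and 1886 in iTreg against 2830, 2453 and 4329 in WT Treg (1422828_at). Again iTreg 3 was lowest and WT 3 highest, and the remaining 4 arrays were mixed. The mean was 2539 ± 688 in iTreg, against 3204 ± 992 in WT Treg (SD, n = 3 each), a log2 difference of -0.33 (-0.99 to 0.34; adjusted p = 0.917 by limma). For Cd3d the difference was -0.13 without iTreg 3 and -0.088 without WT 3. Without the third array of each group it was 0.11 for Cd3d and -0.11 for Cd3g, and without the 2 arrays with label doubts it was -0.59 for Cd3d and -0.60 for Cd3g.

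Cd3e encodes the epsilon chain, present in both pairs and without which the receptor does not reach the surface. Its signals were 3389, 4122 and 6949 in iTreg against 2865, 3592 and 5005 in WT Treg (1422105_at). In both groups the third array was the highest, and the groups overlapped. The mean was 4820 ± 1880 in iTreg, against 3820 ± 1088 in WT Treg (SD, n = 3 each), with a log2 difference of 0.30 (-0.40 to 1.01; adjusted p = 0.920 by limma). It was 0.0066 without iTreg 3 and 0.12 without WT 1. The iTreg 3 array that was lowest for Cd3g and Cd3d was thus the highest for Cd3e.

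**Figure D2:**
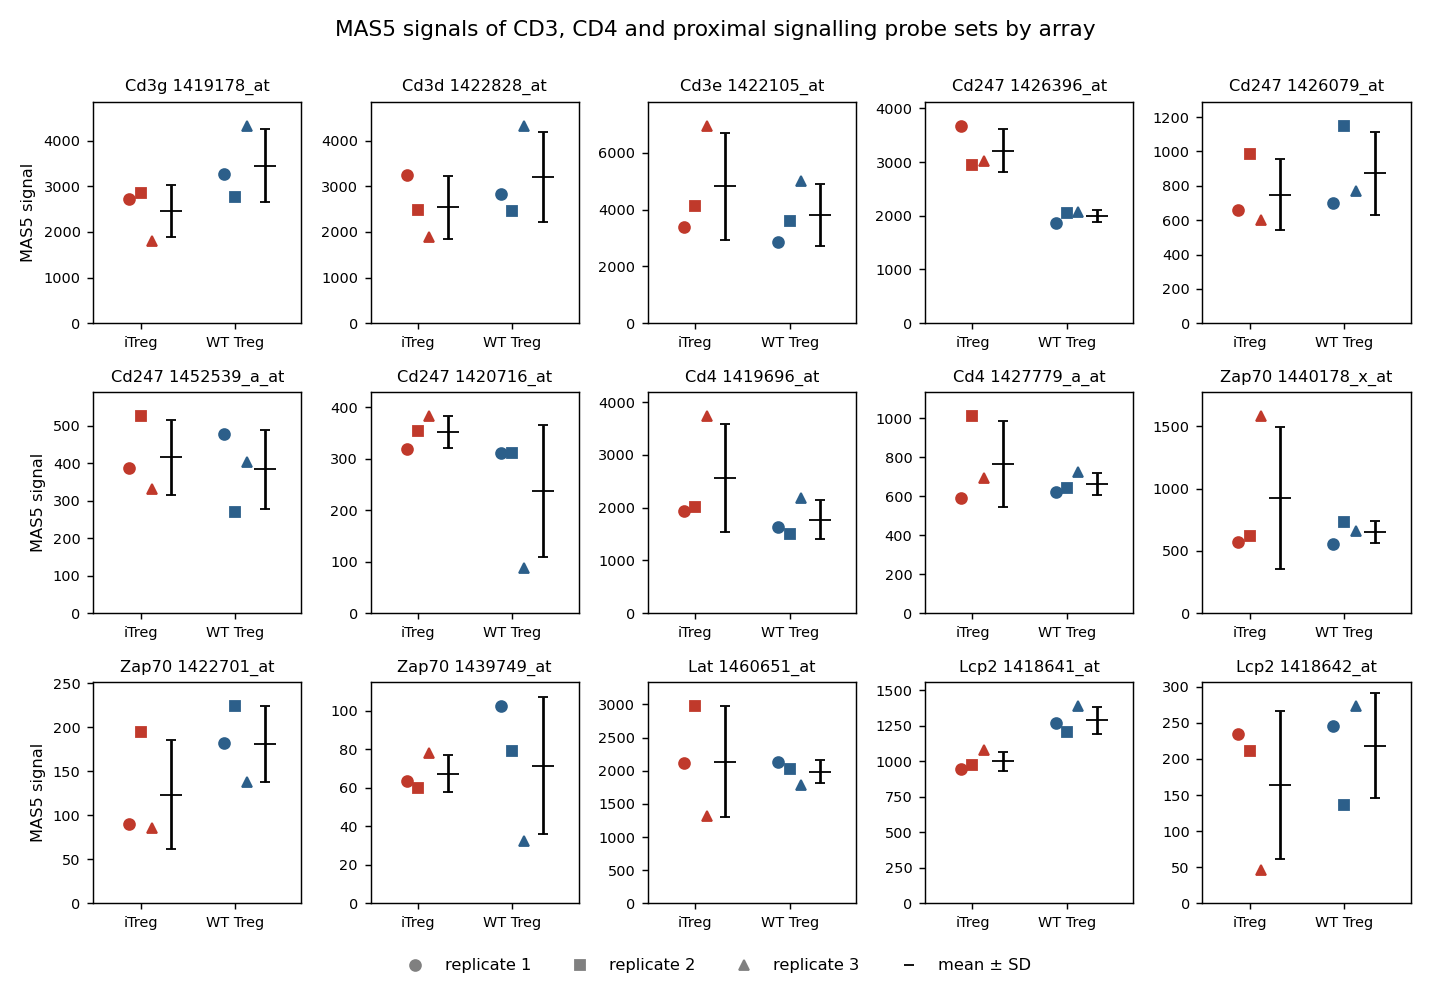
MAS5 signal (linear axis from 0) of every array for the 15 probe sets, iTreg left of WT Treg, 1 point per array with a symbol for each replicate number, and the group mean ± SD beside the points (n = 3 each). The groups are apart in Cd247 1426396_at and 1420716_at, where iTreg is higher, and in Lcp2 1418641_at, where iTreg is lower.

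Cd247 encodes the zeta chain, which carries more of the tyrosine motifs than any other chain of the complex and is the main docking place of ZAP-70. On its brightest probe set, 1426396_at, the signals were 3674, 2941 and 3013 in iTreg against 1859, 2043 and 2076 in WT Treg. All 3 iTreg arrays lay above all 3 WT arrays. The mean was 3209 ± 404 in iTreg, against 1993 ± 117 in WT Treg (SD, n = 3 each), a log2 difference of 0.68 with an interval of 0.13 to 1.23, or 1.60-fold. The unadjusted p was 0.0193 by limma, and the adjusted p of 0.745 missed the threshold. Leaving out any 1 array gave a difference between 0.58 and 0.74. It was 0.75 without the third array of each group and 0.53 without the 2 arrays with label doubts.

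The other 3 probe sets annotated to Cd247 did not repeat this difference in one way. Probe set 1426079_at had 660, 983 and 601 in iTreg against 701, 1150 and 769 in WT Treg, with the second array highest in both groups and a difference of -0.22 (-0.91 to 0.47). Probe set 1452539_a_at had 389, 527 and 332 in iTreg against 478, 271 and 402 in WT Treg, overlapping, with a difference of 0.12 (-0.62 to 0.86). On 1420716_at the iTreg signals of 319, 353 and 383 lay above the WT signals of 310, 311 and 88.7. The difference of 0.71 there (-0.25 to 1.68; adjusted p = 0.866 by limma) rested on the low WT 3 array and was 0.17 without it. The log2 ratio of 1426396_at to 1426079_at on the same array was 2.45, 1.56 and 2.30 in iTreg, against 1.39, 0.82 and 1.41 in WT Treg, which did not overlap (difference 0.90, exact permutation p = 0.1, the smallest that 3 against 3 allows). Adjusted over 17 such pairs, described below, the p was 0.51; the transcript parts that the 2 probe sets cover are not given in the sources used here. Averaged over its 4 probe sets, Cd247 differed by 0.32 (adjusted p = 0.825 by limma).

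Cd4 encodes the coreceptor by which both groups were sorted. Its brighter probe set, 1419696_at, had signals of 1928, 2009 and 3739 in iTreg against 1629, 1497 and 2186 in WT Treg. The third array was the highest of each group, and iTreg 1 and 2 lay below WT 3. The mean was 2559 ± 1023 in iTreg, against 1771 ± 366 in WT Treg (SD, n = 3 each), a log2 difference of 0.48 (-0.21 to 1.16; adjusted p = 0.870 by limma), which was 0.17 without iTreg 3. The other probe set, 1427779_a_at, had 590, 1013 and 694 in iTreg against 622, 644 and 725 in WT Treg, overlapping, with a difference of 0.17 (-0.49 to 0.82). In bulk samples such as these, fewer cells of a type and less RNA per cell cannot be told apart.

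Zap70 encodes the kinase that binds the doubly phosphorylated tails of the CD3 and zeta chains. Its brightest probe set, 1440178_x_at, had 571, 622 and 1583 in iTreg against 555, 730 and 661 in WT Treg. The iTreg 3 array stood alone at the top and the other 5 arrays were mixed. The difference of 0.35 (-0.48 to 1.18; adjusted p = 0.923 by limma) was -0.11 without iTreg 3.

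The other Zap70 probe sets went other ways. On 1422701_at the signals were 90.3, 195 and 85.7 in iTreg against 182, 224 and 138 in WT Treg, with 2 of the 3 iTreg arrays below all WT arrays. The difference there was -0.56 (-1.47 to 0.35; adjusted p = 0.896 by limma). On 1439749_at, the dimmest of all 15, they were 63.7, 60.1 and 78.3 in iTreg against 103, 79.1 and 32.5 in WT Treg, a difference of 0.02 (-0.95 to 0.99). The sign of the difference of Zap70 thus depended on the probe set read.

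Lat encodes the membrane scaffold that ZAP-70 phosphorylates. Its signals were 2124, 2977 and 1315 in iTreg against 2133, 2023 and 1792 in WT Treg (1460651_at), so that the highest and the lowest array were both iTreg. The mean was 2139 ± 831 in iTreg, against 1983 ± 174 in WT Treg (SD, n = 3 each), a log2 difference of 0.04 with an interval of -0.65 to 0.72 (adjusted p = 0.994 by limma). That interval leaves room for a difference of either sign, and does not show equal levels.

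Lcp2 encodes SLP-76, the adaptor that joins LAT through the linker GADS. On its brighter probe set, 1418641_at, the signals were 945, 975 and 1076 in iTreg against 1268, 1202 and 1388 in WT Treg. Every iTreg array lay below every WT array, and the spread within each group was small. In log2 units the SD was 0.097 in iTreg and 0.10 in WT Treg. The limma standard error of the difference was 0.26, as it also draws on other probe sets of similar signal. The mean was 999 ± 68.8 in iTreg, against 1286 ± 94.5 in WT Treg (SD, n = 3 each), a log2 difference of -0.36 (-0.93 to 0.21; adjusted p = 0.890 by limma). Leaving out any 1 array gave -0.41 to -0.30, and without the third arrays it was -0.36. The second probe set, 1418642_at, had 234, 211 and 46.7 in iTreg against 245, 136 and 274 in WT Treg. Its difference of -0.56 (-1.71 to 0.58) came with iTreg 3 far below the rest and was 0.078 without that array.

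The correlations that follow describe log2 signals over 6 arrays, which share only 2 groups and their scaling, and many of them rested on the third array of each group. For Cd3d and Cd3g r was 0.89, and 0.90 after taking out the group means, but -0.0083 on the 4 arrays left without the third ones. Both genes were lowest on iTreg 3 and highest on WT 3. Cd3e had r = 0.91 with Cd4 1419696_at and 0.86 with Zap70 1440178_x_at, and 0.48 and 0.52 without the third arrays. For Cd4 1419696_at and that Zap70 probe set r was 0.85, and -0.49 without the third arrays. Among all pairs of the 15 probe sets, r was largest in size for Zap70 1440178_x_at with the dimmer Lcp2 probe set 1418642_at. It was -0.96, and -0.99 without the third arrays. As the extreme of many pairs on few arrays, this is a ranking only. Cd247 1426396_at had r = -0.24 with Cd3d, 0.63 after taking out the group means, and 0.49 without the third arrays. Cd247 1420716_at had -0.84 with Cd3d, and -0.33 without the third arrays.

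Probe sets of 1 gene often did not go together. Over the 6 arrays r was 0.17 for the pair of Cd4, 0.20 for the pair of Lcp2, -0.49 for Zap70 1440178_x_at and 1422701_at, and -0.35 for Cd247 1426396_at and 1426079_at. The iTreg 3 array was the highest of all 6 in 4 of the 15 probe sets, those of Cd3e, Cd247 1420716_at, Cd4 1419696_at and Zap70 1440178_x_at. It was the lowest in 6, those of Cd3g, Cd3d, Cd247 1426079_at, Zap70 1422701_at, Lat and Lcp2 1418642_at. WT 3 was the highest in 4 and the lowest in 2. Over all 27022 probe sets iTreg 3 correlated with the other arrays at 0.864 to 0.889. It had the highest Gapdh 3′ to 5′ ratio of the 6 arrays, but the lowest Actb one. The part of RNA integrity in this pattern was not tested.

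**Figure D3:**
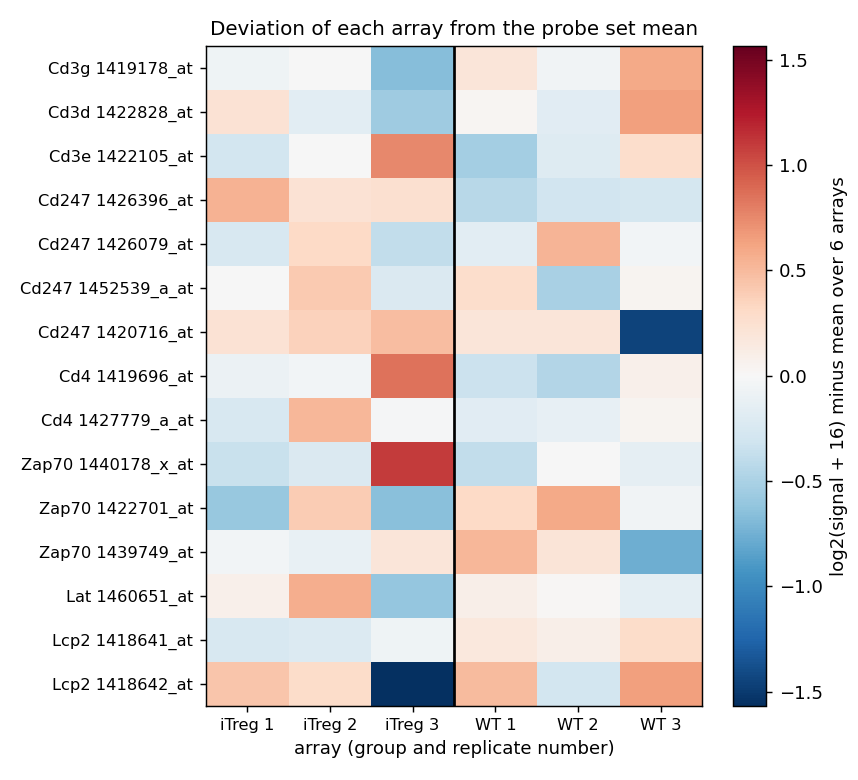
Log2 signal of each of the 15 probe sets on each array, minus that probe set's mean over all 6 arrays; iTreg arrays are left of WT arrays. On iTreg 3 the probe sets of Cd3e, Cd4 (1419696_at) and Zap70 (1440178_x_at) stand above their means and those of Cd3g, Cd3d and Lcp2 (1418642_at) below.

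Differences between chains on the same array were also compared, over 17 pairs of probe sets chosen after the values were seen. The log2 ratio of Cd3g to Cd247 1426396_at was -0.43, -0.04 and -0.74 in iTreg against 0.81, 0.43 and 1.05 in WT Treg, a difference of -1.17 without overlap. That of Cd3d to Cd247 1426396_at was -0.17, -0.25 and -0.67 in iTreg against 0.60, 0.26 and 1.05 in WT Treg, a difference of -1.004 without overlap. Each had an exact permutation p of 0.1, the smallest possible here, and 0.51 after Benjamini-Hochberg adjustment over the 17 pairs. Neither could pass, as the smallest possible p lies above the threshold, so the test does not decide whether these ratios differ. Both share Cd247 1426396_at with the ratio within Cd247 given above, so the ratios without overlap are not separate results. Such a ratio compares how 2 probe sets differ between the groups, not the amounts of their transcripts. The ratio of Cd3e to Cd3g was 0.32, 0.53 and 1.94 in iTreg against -0.19, 0.38 and 0.21 in WT Treg, which overlapped (difference 0.79, exact permutation p = 0.2).

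Among 10656 other genes, the one whose pattern over the 6 arrays was most like the mean of Cd3d, Cd3e, Cd3g and Cd247 was Dtnb (r = 0.99), followed by Umad1 (0.98), Cpsf4 (0.97), Irak1bp1 (0.97) and Zfp523 (0.97). For Cd4 they were Pigu (0.998), Tmc8 (0.991) and Prmt5 (0.989). With 6 arrays and so many genes, likeness of this size is a ranking and nothing more. The mean of the 4 chains, in log2 units around its own mean, was 0.10, 0.01 and -0.05 in iTreg against -0.19, -0.18 and 0.31 in WT Treg, so it was highest on WT 3 and overlapped between the groups.

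Of the wider receptor pathway, 117 probe sets were tested and 0 passed, the lowest adjusted p being 0.377 (limma). At an unadjusted p under 0.05, 9 were higher in iTreg and 8 lower, and their median difference was 0.09 against -0.02 over all probe sets. The 21 probe sets of 10 genes that control Src family kinases had a median of 0.05, with 0 higher and 2 lower at that level. The 27 of 13 genes of the complex assembled on LAT had a median of 0.30, with 7 higher and 0 lower. The 28 of 15 genes for further adaptors and brakes had a median of -0.12, with 0 higher and 4 lower, and the 41 of 12 genes for the branches downstream had a median of 0.09, with 2 higher and 2 lower. The shares of all probe sets at that level were 2.44% higher and 3.77% lower. The constant regions of the receptor chains themselves had 0 of 4 genes with a named probe set and were not analysed here.

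**Figure D4:**
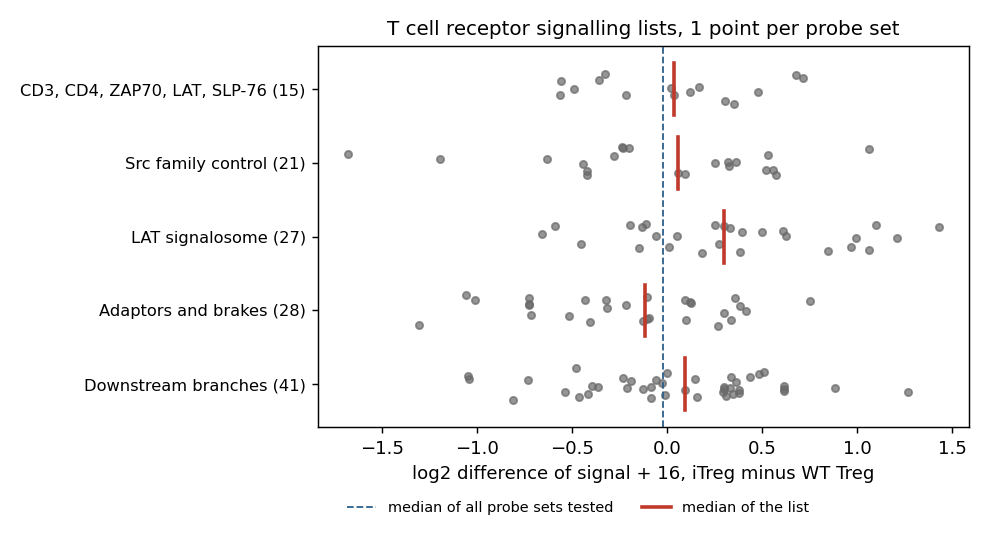
Log2 difference of iTreg minus WT Treg for every tested probe set of the 4 pathway lists and of the 15 probe sets of the CD3, Cd4 and proximal signalling genes, 1 point each, with the median of each list as a solid line and that of all probe sets tested as a dashed line. The LAT complex list has a median of 0.30 and the list of adaptors and brakes one of -0.12.

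At an unadjusted p under 0.05, the 7 higher probe sets of the LAT complex list came from 3 genes. Themis, a protein that binds the adaptor GRB2 and is needed for normal thymocyte selection, accounted for 4 of them, all without overlap between the groups. On 1436423_at Themis had signals of 862, 953 and 1989 in iTreg against 485, 425 and 380 in WT Treg, with a difference of 1.43 on the log2 scale (adjusted p = 0.377 by limma). The remaining probe sets of Themis gave 1.06, 0.96 and 1.10, so that this gene, unlike Cd247 and Zap70, had the same sign on each probe set. Grap2, which encodes the GADS linker between LAT and SLP-76, had 167, 232 and 471 in iTreg against 176, 78.2 and 82.8 in WT Treg on 1420685_at, overlapping only through iTreg 1 and WT 1 (1.21, adjusted p = 0.762 by limma), and differed by 0.84 on 1460280_at. Plcg1, the phospholipase that starts the calcium branch, had 3954, 3864 and 4393 in iTreg against 2835, 3099 and 2061 in WT Treg on 1435149_at, without overlap (0.63, adjusted p = 0.775 by limma), with differences of 0.33 and -0.06 on the remaining probe sets; without the third arrays Grap2 1420685_at differed by 0.66 and Plcg1 1435149_at by 0.40.

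The 6 lower probe sets at that level among Src family control and among adaptors and brakes were 2 of Ptprj, 1 of Cd5, 2 of Trat1 and 1 of Sla. Ptprj, a receptor phosphatase that acts on Src family kinases, had 28.5, 20.8 and 36.1 in iTreg against 132, 69.4 and 205 in WT Treg on 1425588_at, without overlap. Only 1 of the 3 iTreg signals, but all 3 WT signals, lay above the control level, so the size of the log2 difference depends on the pseudocount: it was -1.68 with 16 (adjusted p = 0.511 by limma), -2.11 with 1 and -1.05 with 64. The remaining probe sets of Ptprj gave -1.20 and -0.63. Cd5, an inhibitory surface receptor, had 823, 661 and 520 in iTreg against 1445, 1323 and 1392 in WT Treg, without overlap (-1.06, adjusted p = 0.485 by limma). Trat1, a transmembrane adaptor that binds the receptor complex, differed by -1.31 and -1.01 on its 2 probe sets, and Sla, an adaptor that lowers receptor levels, by -0.73, -0.73, -0.43 and -0.11 on its 4. None of these passed the test over all probe sets.

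The rest of the genes with the smallest p in their lists were Unc119, an activator of LCK, Cd2, an adhesion receptor, and 3 of the downstream list. Unc119 differed by 1.06 and Cd2 by -0.44, with overlapping groups and an adjusted p of 0.866 for each by limma; Unc119 differed by 0.21 without iTreg 3. Map2k1, the kinase MEK1, differed by 0.88. The calcium channel gene Orai1 differed by 1.26 on one probe set and -0.08 on the other, and Ppp3ca, a catalytic subunit of calcineurin, by -1.05, 0.29 and -0.23. Without iTreg 3 the first of these values was 0.72 for Orai1 and -0.64 for Ppp3ca. In the last 2 genes the sign depended on the probe set, as it did in Cd247 and Zap70.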

How the data were processed

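Foxp3+ CD4 T cells were measured on 6 arrays, 3 of iTreg and 3 of WT Treg, grouped and numbered as their titles say; the labels' protocols name Trizol for the extraction and biotin as the label. Intensity values are deposited as MAS5 signals, per the submitters' processing notes, 1 for each probe set and on a linear scale by their values; the version of MAS5 and a genome build are not given in the sources used here. No label states that replicates are separate mice, so p-values measure only how these arrays vary, perhaps technically, and the number of arrays limits the precision.

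Of the 45101 probe sets, 64 were controls, 34945 had 1 gene symbol, 932 several and 9160 none, and those with several or none were not named. Symbols were updated by Entrez ID to RefSeq names. Signals were taken as log2(signal + 16), and those 27022 whose mean reached the 40th percentile (4.905) were fitted in R 4.3.3 with limma 3.58.1 (lmFit, then eBayes allowing an intensity trend). Benjamini-Hochberg adjustment was over all of them at 0.05, two-sided. Before this, simulated data were used to check that the mean estimated differences lay near those put in. That check set no condition on how many changes were called, so it does not tell the power of the test. Pathway and marker lists came from textbook knowledge. The genes, lists and tests were chosen with earlier results of these data known. All probe sets of the listed genes were named, with the 3 genes of smallest p in each pathway list, and the 5 and 3 genes most like the CD3 chains and Cd4. Ratios of probe sets were compared by exact permutation over arrays. Alternatives were pseudocounts of 1 and 64, quantile and median scaling, no filter and the 60th percentile, eBayes without trend or robust, array weights, 1 probe set or the mean per gene, the replicate number as a block, and arrays left out.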

Additional observations from a re-analysis of the deposited data

How the results depend on the processing

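Under the 20 alternatives 0 of the 15 probe sets passed, the lowest adjusted p being 0.513 (limma), and 0 of the pathway probe sets passed. The count over all probe sets, 7, was 2 with a pseudocount of 1, 2 without the filter, 12 with array weights, 3 with 1 probe set per gene, 3 with the mean per gene, 0 without both arrays with label doubts, 0 without the replicate 3 arrays, and 0 to 9 with each array left out. With the replicate block it was 3; same-numbered arrays correlated at 0.191, 0.0365 and 0.118 in their deviations, each array best with its own number, which is a hint from the data and no design. Of the 15, 8 kept their sign wherever they were refitted (5 in all 20, and 3 in the 18 that keep every probe set), Cd247 1426396_at among them. Cd3e did so only just, at 0.0066 without iTreg replicate 3, as did Cd247 1426079_at, at -0.0055 without WT replicate 2. Signs turned for Zap70 1439749_at (-0.00963 with a pseudocount of 64, -0.239 with array weights, -0.4473 without the replicate 3 arrays, -0.3552 to 0.289 with each array left out). They turned for Zap70 1440178_x_at (-0.06253 as a gene mean, -0.09246 without the replicate 3 arrays, -0.1105 to 0.6118 with each left out) and Lat (-0.0009032 with quantile scaling, -0.2406 to 0.3441). They also turned for Lcp2 1418642_at (0.2572 without the replicate 3 arrays, -0.9213 to 0.07751), Cd3d (0.107 without the replicate 3 arrays), Cd4 1427779_a_at (-0.04818 to 0.3338) and Cd247 1452539_a_at (-0.1002 to 0.2912). The cause was not tested. With 3 arrays a group, intervals of the 15 probe sets exclude only large differences, and dim probe sets such as Zap70 1439749_at are the least certain.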
